A study of Mus musculus with 7 samples.

Results

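The accessibility of chromatin at 10 genes of hepatic bile acid signalling and transport was compared between young and aged mouse liver. The genes were chosen by name for their roles: the receptors and the corepressor Nr1h4, Nr0b2, Fgfr4 and Klb, the uptake carrier Slc10a1, the canalicular exporters Abcb11, Abcc2 and Abcb4, and the conjugating enzymes Baat and Slc27a5. Every accessible region that overlapped 1 of these genes or the 10000 bp on either side was assigned to it, which gave 78 of the 55680 regions counted, and no region lay in the windows of 2 of the genes. Libraries came from liver of C57BL/6N mice, males by the study's methods, with 3 samples at 3 months and 4 at 18 months, and no genetic change or treatment was applied to either age. Chromatin was probed by ATAC-seq, in which a transposase inserts sequencing adapters into exposed DNA of isolated nuclei. By the deposited design text the aged samples came from 3 animals, 1 of them sampled in 2 lobules, whereas the paper counts every sample as a biological replicate. The labels do not say which samples share an animal, so that p-values over 4 aged samples may understate the spread between animals. Nuclei were taken from whole tissue, and at the level of a bulk library a smaller share of a cell type and lower accessibility per cell cannot be told apart.

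Bile acids are made from cholesterol in hepatocytes, conjugated to taurine or glycine, secreted across the canalicular membrane and taken up again from portal blood. The nuclear receptor FXR, encoded by Nr1h4, senses them in the nucleus and induces export pumps and the corepressor SHP (Nr0b2), which represses synthesis. A hormone from the intestine also represses synthesis through the receptor FGFR4 and its coreceptor β-Klotho (Klb) on the hepatocyte surface.

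Counts in regions summed to between 4474652 and 25461110 per library. All 6 hepatocyte markers examined had an accessible promoter, as did 3 of 5 markers of cholangiocytes, 3 of 5 of sinusoidal endothelium, 3 of 5 of stellate cells, 1 of 5 of Kupffer cells and 0 of 5 of lymphocytes. The defining cholangiocyte genes Krt19 and Krt7 and the Kupffer cell genes Vsig4, Adgre1, Cd68 and Csf1r had no region at their promoters. At the 6 hepatocyte promoters (Alb, Ttr, Apoa1, Apob, Cps1 and Tat) the summed accessibility was 486 to 558 CPM (counts scaled to the library total, with TMM factors) in young and 599 to 706 in aged libraries. Apoa1 alone passed the test among them, and without it the sums overlapped, at 312 to 355 CPM in young and 348 to 406 CPM in aged libraries. With offsets fitted on mean accessibility 3 of the 6 lay above 0. Over the stellate cell promoters it was 26.6 to 29.1 in young and 16.1 to 23.5 in aged libraries, and none of the 3 passed. Cholangiocyte sums were 43.8 to 52.0 in young and 39.4 to 56.9 in aged libraries and came mostly from Sox9 (log2 fold change -0.05 ± 0.15), while Epcam was lower in every aged library (-0.77 ± 0.29, adjusted p = 0.116) and Spp1 had 0.16 ± 0.29, none past the test. Endothelial sums were 59.4 to 65.4 and 48.4 to 80.7, and the single Kupffer cell promoter, of Clec4f, lay at 2.22 to 2.65 and 0.588 to 2.80. The part of these levels in the differences below was not tested.

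The sequences shown here carry 4 of the increases described in the next paragraphs, or the promoter beside one of them. They are shown 5′ to 3′ on the strand of the gene for promoters, from 250 bases before to 50 bases after the RefSeq start, and on the plus strand for the 300 bases at the centre of a region, all from GRCm38.p6. Capitals mark letters that match a searched motif. The motifs were the inverted repeat to which FXR binds with its partner RXR (half-site AGGTCA, any base, then TGACCT, with up to 2 mismatches in the 12 defined letters), CAAGGTCA of NR5A2, CAAAGTCCA of HNF4A, TTGCGCAA of C/EBP factors and TATAAA, each on both strands, and the NR5A2 motif holds the AGGTCA half-site within it.
Abcb11 promoter, chr2:69342567-69342866, minus strand: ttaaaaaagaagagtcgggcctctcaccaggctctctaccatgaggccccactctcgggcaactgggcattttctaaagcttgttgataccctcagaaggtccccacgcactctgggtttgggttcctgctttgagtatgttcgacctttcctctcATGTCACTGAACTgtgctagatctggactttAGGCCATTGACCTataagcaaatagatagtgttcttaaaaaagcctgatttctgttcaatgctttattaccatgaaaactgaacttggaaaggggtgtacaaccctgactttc
Nr0b2 promoter, chr4:133553126-133553425, plus strand: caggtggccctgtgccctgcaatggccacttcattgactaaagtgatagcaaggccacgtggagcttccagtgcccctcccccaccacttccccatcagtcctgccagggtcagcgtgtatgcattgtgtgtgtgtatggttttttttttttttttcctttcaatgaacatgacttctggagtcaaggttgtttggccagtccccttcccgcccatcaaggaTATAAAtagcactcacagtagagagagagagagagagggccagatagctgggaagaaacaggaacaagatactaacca
Nr0b2 downstream region, centre, chr4:133557268-133557567, plus strand: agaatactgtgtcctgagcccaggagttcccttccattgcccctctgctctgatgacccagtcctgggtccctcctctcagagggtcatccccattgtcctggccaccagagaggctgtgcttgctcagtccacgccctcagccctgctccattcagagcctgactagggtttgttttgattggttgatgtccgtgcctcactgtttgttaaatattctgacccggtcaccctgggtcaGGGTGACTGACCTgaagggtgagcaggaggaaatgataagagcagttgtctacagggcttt
Fgfr4 promoter, chr13:55152568-55152867, plus strand: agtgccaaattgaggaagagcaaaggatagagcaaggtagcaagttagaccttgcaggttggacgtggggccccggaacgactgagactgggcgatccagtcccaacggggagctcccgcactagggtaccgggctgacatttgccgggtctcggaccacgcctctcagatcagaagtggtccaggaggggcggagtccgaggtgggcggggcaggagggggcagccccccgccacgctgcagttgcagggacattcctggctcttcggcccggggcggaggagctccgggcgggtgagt
Baat downstream region, centre, chr4:49486106-49486405, plus strand: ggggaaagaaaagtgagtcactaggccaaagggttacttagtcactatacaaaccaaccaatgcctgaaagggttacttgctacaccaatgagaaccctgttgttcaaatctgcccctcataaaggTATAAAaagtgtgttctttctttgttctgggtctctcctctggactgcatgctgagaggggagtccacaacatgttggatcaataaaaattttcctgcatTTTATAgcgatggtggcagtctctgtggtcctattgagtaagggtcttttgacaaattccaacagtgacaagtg

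The Abcb11 promoter held 2 matches to the inverted repeat, AGGCCATTGACCT with 1 mismatch, 63 bases before the start, and ATGTCACTGAACT with 2 mismatches, 94 bases before it. It was the only 1 of 9 promoter windows with a match, from 8 of the 10 genes, and 1.14% of 32851 RefSeq promoters of this length held one. The centre of the region downstream of Nr0b2 held GGGTGACTGACCT, with 2 mismatches, and an intron region of Klb that was not called held AGCCCAGTGACCT. These were 2 of 76 region centres at the 10 genes, and 2.30% of 53144 region centres held a match. The Nr0b2 promoter held TATAAA 28 bases before the start, and an Slc10a1 promoter window held it on the other strand, 128 bases before the start. These were 2 of the 9 windows, and 13.6% of all promoters held the motif. The centre of the region downstream of Baat held TATAAA once on each strand, and the Fgfr4 promoter held none of the motifs. TATAAA was found in 15 of the 76 region centres and in 11.2% of all centres. CAAGGTCA, CAAAGTCCA and TTGCGCAA were found in 0 of the 9 promoter windows and in 1.56%, 0.475% and 0.183% of all promoters. Of the 76 region centres they were found in 1, 0 and 0, against 2.65%, 1.40% and 0.16% of all centres. The 1 match was CAAGGTCA in a region further downstream of Nr0b2 (chr4:133562908-133563783), which was not called. A match of letters is a description of the sequence and does not show that a factor was bound.

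Aged liver was more accessible at 4 of the 78 regions and less accessible at 1 (edgeR's quasi-likelihood test, adjusted p under 0.05 over all regions). The 4 were the promoters of Abcb11, the bile salt export pump, and Fgfr4, a region downstream of Nr0b2 and a region downstream of Baat. The region that fell lies in the window of Abcc2 but in an exon of its neighbour Dnmbp. These were 5.13% and 1.28% of the 78 regions, against 2.44% of all regions called higher and 3.3% called lower. Without adjustment 21 regions (26.9%) had a p under 0.05, and so did 24.6% of all regions. Every aged library lay above every young one at 15 regions and below at 5, while the libraries of the ages were separated in this way at 10.2% of all regions upwards and at 11.6% downwards. The median log2 fold change over the 78 regions was 0.11, and that over all regions was -0.035. The balance moved with the setting. It was 2 regions higher and 3 lower with total counts, and 8 higher and 1 lower with offsets fitted on GC content. Over all regions 0.98% were called higher with total counts (543 of 3474 calls) and 6.28% with offsets on GC content (3497 of 5540 calls). DESeq2, which differs in its test as well as its scaling, called 6 of the 78 higher and 1 lower. Over all regions 2760 of its 4691 calls were higher, which is 4.96% of all regions, in place of 1360 of 3198. The calls were lost with offsets fitted on mean accessibility, which left 0 of the 78 regions called and 658 in the whole table in place of 3198, and without young replicate 1, young replicate 2, aged replicate 1 or aged replicate 3, each of which also left 0 of the 78 called. Over the whole table these 4 omissions left 188, 446, 402 and 651 regions.

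**Figure D1:**
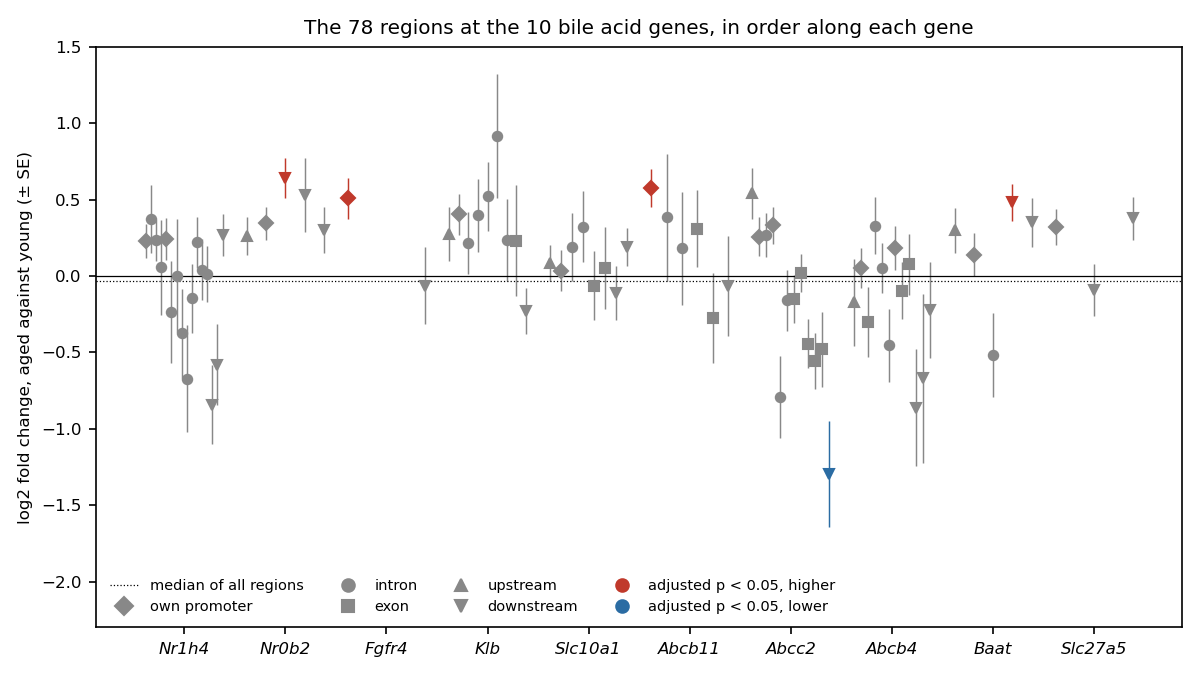
Log2 fold change of aged against young liver (y axis, ± SE) at each of the 78 regions, grouped by gene on the x axis and ordered along the gene in the direction of transcription; symbols give the location, and colours mark the 4 regions called higher and the 1 called lower. Regions of Nr0b2 all lie above 0, while those of Abcc2 run from 0.54 upstream to -1.29 at the far end.

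All 10 genes had a region at an annotated start, and 13 of the 78 regions lay at such starts (within 200 bp). With TMM scaling all 13 lay above 0, at log2 fold changes from 0.04 to 0.58 (median 0.26), but only 7 of 13 did with offsets fitted on mean accessibility and 11 of 13 with scaling by total counts. Of the 13, 2 were called higher and 0 lower (15.4% and 0%), and over all promoter regions 4.48% were called higher and 2.06% lower. At 6 of the 13 every aged library lay above every young one, as at 20.4% of all promoter regions and 44.7% of the regions in the strongest decile by accessibility. The median over all 15422 promoter regions was 0.094, with 61.1% above 0. These promoters were among the most accessible regions of the liver, however, and 7 of the 13 belonged to this strongest decile. Over that decile the median log2 fold change was 0.28, and 93.8% of its regions lay above 0. The other 65 regions had a median of 0.051, which turned to -0.066 with total counts, -0.0047 without young replicate 1 and -0.015 without aged replicate 1, and was 0.13 with the replicate block and 0.15 without aged replicate 4. Over the 60 of them outside all promoters it was 0.031, the same measure being -0.091 over all regions outside promoters.

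**Figure D2:**
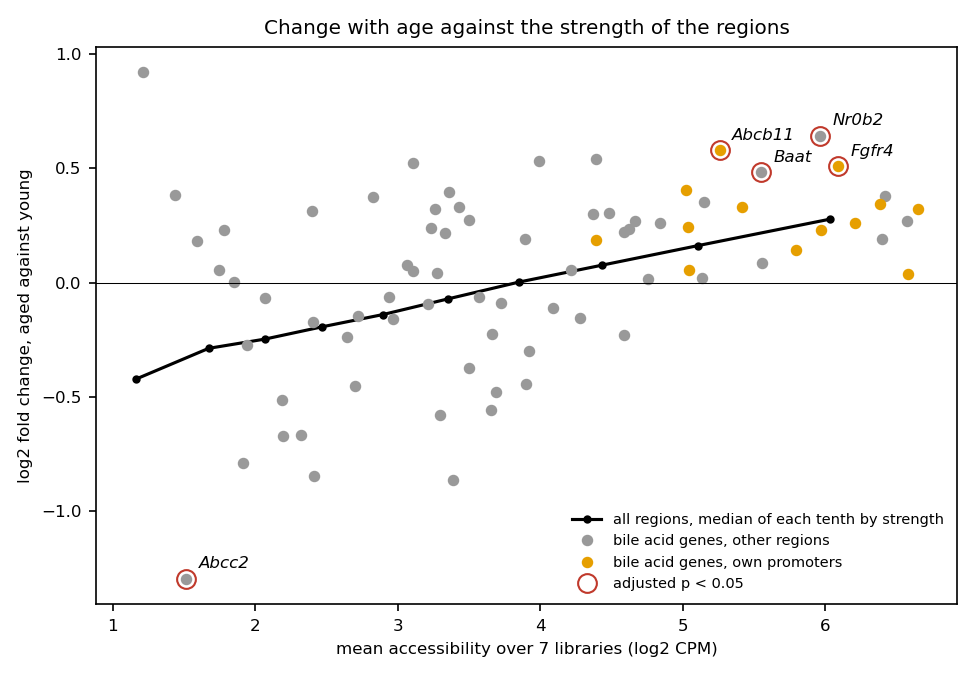
Log2 fold change of aged against young liver (y axis) against mean accessibility over the 7 libraries (x axis, log2 CPM) for the 78 regions, with own promoters in orange and called regions circled and labelled by the gene of the window; the black line joins the medians of all regions in deciles of strength. The line rises from -0.42 in the lowest decile to 0.28 in the strongest, and the 4 regions called higher lie above it; the direction at 6 of the 13 own promoters turns below 0 with offsets fitted on mean accessibility.

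Among the signalling genes, the promoter region of Nr1h4 (chr10:89531246-89534111) had 52.9, 61.5 and 56.9 CPM in young replicates 1 to 3 and 66.6, 70.8, 71.9 and 59.8 CPM in aged replicates 1 to 4. Aged replicate 4 lay within the young range and the other aged libraries above it. The log2 fold change was 0.23 ± 0.11 (SE) and did not pass the test (edgeR, adjusted p = 0.218). A second start of Nr1h4 inside the gene carried a region (chr10:89504580-89507181) with 25.9, 30.3 and 33.2 CPM in young and 39.9, 36.1, 35.3 and 29.5 CPM in aged libraries. Its log2 fold change was 0.25 ± 0.14 (adjusted p = 0.292), and aged replicate 4 again lay inside the young range.

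Nr1h4 held 16 regions in all, and none was called. With TMM scaling 10 of the 16 had a log2 fold change above 0, but 6 did with total counts, without young replicate 1 or with aged replicates 2 and 3 summed, and 7 without aged replicate 2 or 3. The strongest outside promoters, in an intron (chr10:89458482-89459592), differed by 0.01 ± 0.18 on the log2 scale (adjusted p = 0.972). Just past the end of the gene, a region at chr10:89451428-89452509 had 6.02, 8.20 and 7.56 CPM in young and 4.48, 5.30, 3.73 and 2.80 CPM in aged libraries. All aged libraries were lower there, with a log2 fold change of -0.84 ± 0.26 that missed the threshold (adjusted p = 0.067). In the intron at chr10:89494152-89496017 aged replicate 4 had 4.33 CPM, while the other aged libraries had 10.9, 14.3 and 12.8 CPM and the young libraries 11.7, 14.4 and 14.3 CPM. Aged replicate 4 was the lowest aged library at 39 of the 78 regions (29.8% of all regions) and young replicate 1 the lowest young library at 51 (32.6% of all regions), and the part of these libraries in the differences was not tested beyond leaving each out.

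All 5 regions of Nr0b2 lay above 0, also with total counts and with offsets fitted on mean accessibility or GC content, and at 4 of them the ages were separated. The region downstream of the gene, 3613 bp from its start (chr4:133556989-133557846), in no annotated gene, had 50.9, 51.2 and 43.1 CPM in young and 68.9, 64.9, 77.7 and 91.9 CPM in aged libraries. The lowest aged library was well above the highest young one. The log2 fold change was 0.64 ± 0.13 (edgeR, adjusted p = 0.018), the largest among the 4 regions called higher, and it ran from 0.39 to 0.71 over 21 other settings, past the threshold in 16. In some of these settings the Abcb11 promoter had the larger value, as without young replicate 3 (0.69 against 0.58). At the Nr0b2 promoter (chr4:133552024-133554299) the libraries had 77.0, 75.3 and 66.1 CPM in young and 85.8, 92.6, 92.2 and 100.3 CPM in aged liver. The ages did not overlap, but the difference of 0.35 ± 0.11 did not pass the test (adjusted p = 0.073) and was 0.05 with offsets fitted on mean accessibility. The remaining 3 regions had log2 fold changes of 0.26 at the upstream edge, where the region is the promoter of Nudc, and of 0.53 and 0.30 further downstream, and none of them passed the test.

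**Figure D3:**
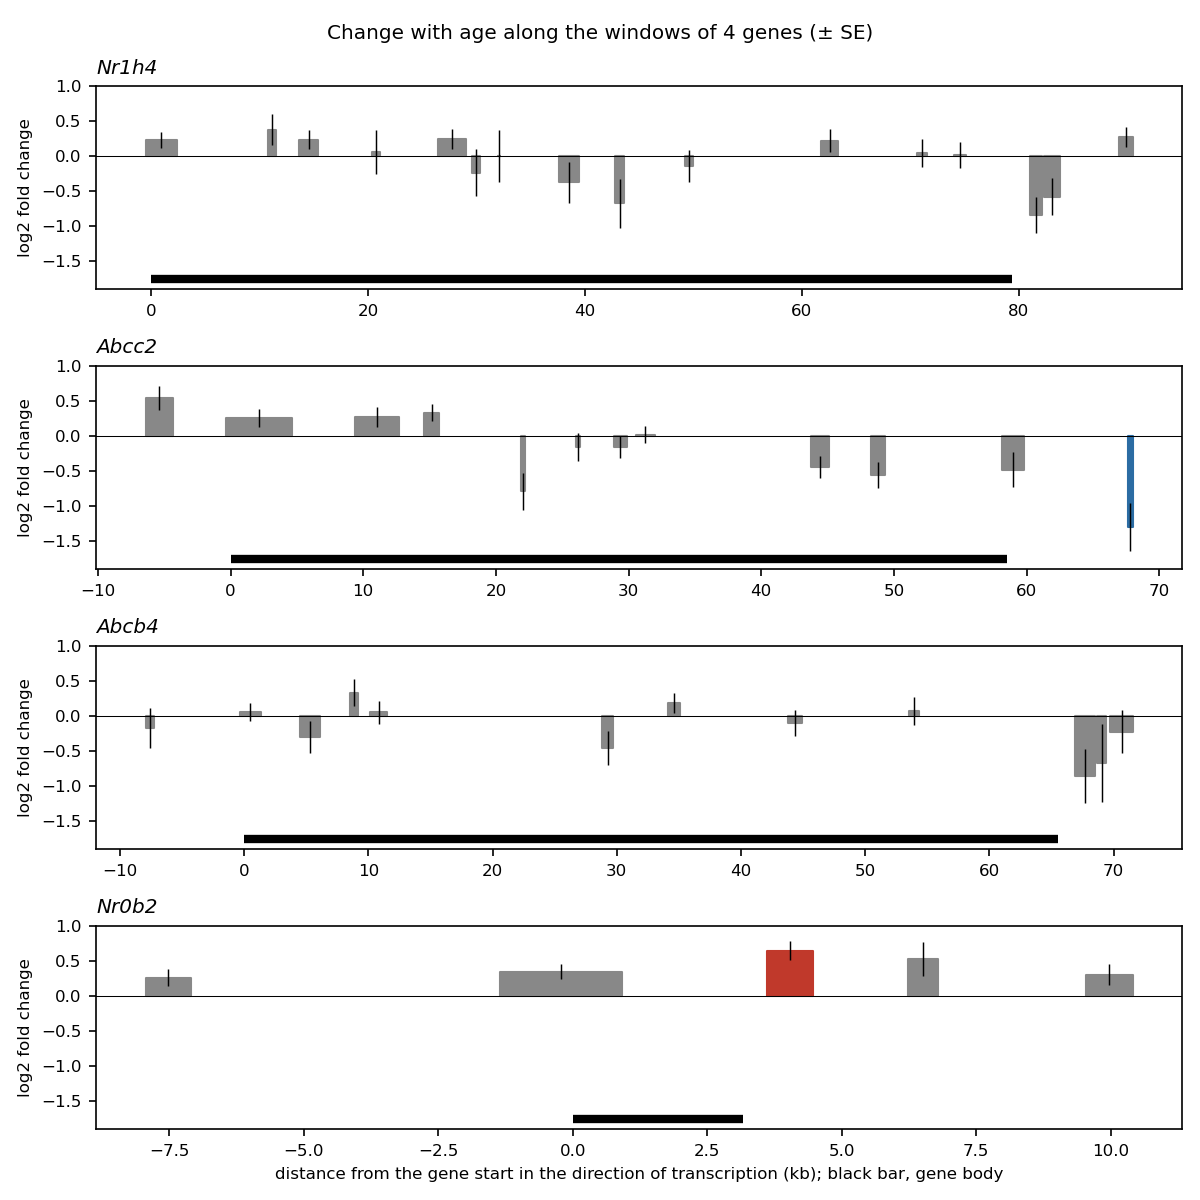
Log2 fold change of aged against young liver (y axis, ± SE) by distance from the gene start in kb (x axis) for the regions of Nr1h4, Abcc2, Abcb4 and Nr0b2; each bar is as wide as its region, red and blue mark regions called higher and lower, and the black bar is the gene body. At Nr0b2 each of the 5 bars lies above 0, and at Abcc2 the 4 bars nearest the start lie above 0 and 7 of the 8 further along lie below, but with offsets fitted on mean accessibility those at and just after the start turn to -0.02 and -0.05.

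Fgfr4, the receptor tyrosine kinase for the intestinal hormone, had only 2 regions. Its promoter region (chr13:55152443-55154992) had 64.8, 51.7 and 51.1 CPM in young and 77.0, 64.9, 85.7 and 90.4 CPM in aged libraries. Young replicate 1 and aged replicate 2 nearly met, and the ages did not overlap. The log2 fold change of 0.51 ± 0.13 passed the test (adjusted p = 0.043), but in 14 of 21 other settings it did not (adjusted p from 0.051 to 0.309). The region downstream of the gene (chr13:55171669-55172230) had 6.39 to 9.70 CPM in young and 5.60 to 10.6 CPM in aged libraries, and the log2 fold change was -0.06 ± 0.25 (adjusted p = 0.907).

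Klb, which encodes the coreceptor of FGFR4, had a promoter region (chr5:65347694-65349945) with 23.9, 29.2 and 30.3 CPM in young and 39.6, 39.8, 33.2 and 34.0 CPM in aged libraries. Every aged library exceeded every young one, and the log2 fold change of 0.40 ± 0.13 missed the threshold (adjusted p = 0.081). Of its 9 regions 8 lay above 0 and none was called. In the strongest region outside promoters, upstream of the gene (chr5:65340013-65340562), young libraries had 9.07, 11.5 and 9.21 CPM and aged libraries 11.5, 12.7, 12.4 and 11.96 CPM, a log2 fold change of 0.27 ± 0.18 (adjusted p = 0.363). In an intron (chr5:65356710-65357592) young libraries had 6.66, 8.47 and 5.59 CPM and aged libraries 13.0, 8.63, 10.04 and 8.53 CPM. The ages were separated there by a narrow margin, and the log2 fold change was 0.52 ± 0.23 (adjusted p = 0.173). The 1 region of the window below 0 lies at the promoter of the neighbours Lias and Rpl9.

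The uptake carrier Slc10a1, which brings conjugated bile acids into the hepatocyte with sodium, showed the smallest log2 fold change of the 10 main promoters in the fit reported here. Its promoter region (chr12:80965278-80968916) had 80.1, 88.2 and 116.6 CPM in young and 105.8, 96.1, 100.2 and 85.8 CPM in aged libraries. The ages overlapped throughout, and young replicate 3 was the highest of all. The log2 fold change was 0.04 ± 0.13 (edgeR, adjusted p = 0.900), and its sign changed with the setting, from -0.29 with offsets fitted on mean accessibility to 0.21 without young replicate 3. In that last setting the Abcb4 promoter had a smaller value, 0.11. None of the 8 regions of Slc10a1 had libraries separated by age or an unadjusted p under 0.05, and the strongest outside promoters, upstream (chr12:80975096-80976884), stood at 0.09 ± 0.12 (adjusted p = 0.691).

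The exporters are described in turn, and a difference between them was not tested. At the promoter of Abcb11 (chr2:69341107-69343140), the pump that carries bile salts into the canaliculus, young libraries had 26.5, 29.9 and 35.0 CPM and aged libraries 44.7, 43.1, 48.8 and 44.5 CPM. Every aged library lay above the young range. The mean was 45.3 ± 2.43 (SD, n = 4) in aged liver against 30.5 ± 4.30 (SD, n = 3) in young liver, where the spread was larger. Accessibility was 1.49-fold higher, a log2 fold change of 0.58 ± 0.12 (adjusted p = 0.020). Over 21 other settings this value ran from 0.40 to 0.69 and passed the test in 15, with adjusted p between 0.0018 and 0.118. It did not pass with offsets fitted on mean accessibility, where the region lay at 0.40 (adjusted p = 0.118). The other 5 regions of Abcb11 were weak, with no more than 7.004 CPM in any library, and the strongest of them, in an exon (chr2:69288757-69289520), stood at 0.31 ± 0.25 (adjusted p = 0.475).

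Abcc2, the exporter of bilirubin conjugates and other organic anions, had 12 regions in its window. With TMM scaling 5 of its 12 regions lay above 0, and 2 did with offsets fitted on mean accessibility. The 4 regions nearest its start had log2 fold changes above 0, of which the promoter and the next region turned to -0.02 and -0.05 with offsets fitted on mean accessibility. The one upstream (chr19:43775802-43777817) had 15.0, 17.2 and 18.4 CPM in young and 23.9, 27.7, 28.2 and 19.0 CPM in aged libraries, separated by age, and differed by 0.54 ± 0.17 on the log2 scale (adjusted p = 0.067). The promoter region itself (chr19:43781864-43786798) had 57.6, 68.1 and 74.7 CPM in young and 68.6, 85.7, 90.3 and 75.6 CPM in aged libraries, with 0.26 ± 0.13 (adjusted p = 0.231). In the strongest region outside promoters, in an intron (chr19:43791574-43794907), the log2 fold change was 0.27 ± 0.15 (adjusted p = 0.275), and at a second start within the gene it was 0.33 ± 0.12 (adjusted p = 0.115).

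Of the 8 regions further along, 7 had log2 fold changes below 0 and 1 lay at 0.02 (chr19:43812731-43814186), which turned below 0 with total counts or offsets fitted on mean accessibility, and none within the gene passed the test. A difference along the gene was not tested. In an intron (chr19:43804101-43804378) young libraries had 5.46, 5.59 and 3.62 CPM and aged libraries 2.81, 3.14, 2.33 and 3.18 CPM, a log2 fold change of -0.79 ± 0.27 (adjusted p = 0.091). Aged libraries were also all lower in an exon at chr19:43825963-43827271, with 17.6, 17.2 and 17.9 CPM in young and 11.1, 14.9, 13.3 and 12.9 CPM in aged liver. The log2 fold change there was -0.44 ± 0.16 (adjusted p = 0.110). In a further exon (chr19:43830501-43831512) young libraries had 12.2, 17.01 and 17.4 CPM and aged libraries 9.49, 11.6, 10.97 and 10.4 CPM, with -0.56 ± 0.18 (adjusted p = 0.081). The called region (chr19:43849812-43850185) lies beyond the gene in the exon of Dnmbp, which is transcribed from the other strand, and had 4.54, 5.63 and 2.96 CPM in young and 1.05, 2.55, 2.33 and 1.91 CPM in aged libraries. It fell by 1.29 ± 0.35 on the log2 scale (adjusted p = 0.044) and passed the test in 12 of 21 other settings. It is a weak region, in the second decile of accessibility from the bottom, and the regions of that decile had a median of -0.29 over the whole table.

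Abcb4, which moves phosphatidylcholine into bile, differed at its promoter by less than the spread between libraries. The region (chr5:8893372-8895071) had 31.3, 30.8 and 34.4 CPM in young and 33.2, 34.7, 37.8 and 28.0 CPM in aged libraries, and the log2 fold change of 0.05 ± 0.13 (adjusted p = 0.839) turned to -0.09 with offsets fitted on mean accessibility. A second start within the gene (chr5:8927857-8928812) had 0.19 ± 0.14 (adjusted p = 0.459), and the strongest region outside promoters, in an intron (chr5:8903883-8905217), had 0.05 ± 0.16 (adjusted p = 0.871). None of the 12 regions was called. Past the end of the gene, young replicate 3 stood far above the others: at chr5:8960634-8962194 it had 26.8 CPM, against 10.7 and 11.3 CPM in the other young libraries and 7.73, 3.53, 15.6 and 8.53 CPM in the aged libraries. The log2 fold change there was -0.86 ± 0.38 (adjusted p = 0.183), with a wide spread in both ages.

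The conjugating enzymes are Slc27a5, which activates bile acids with coenzyme A, and Baat, which joins them to taurine or glycine. At the Slc27a5 promoter (chr7:12995900-12999986), a region that also covers the start of Trim28, young libraries had 82.7, 88.3 and 94.4 CPM and aged libraries 97.8, 123.8, 116.5 and 104.7 CPM. The ages did not overlap, and the log2 fold change of 0.32 ± 0.12 missed the threshold (adjusted p = 0.106). With offsets fitted on mean accessibility it was -0.00045. The strongest region of Slc27a5 outside promoters, downstream (chr7:12983108-12983903), stood at -0.09 ± 0.17 (adjusted p = 0.791).

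At the Baat promoter (chr4:49503064-49507433) young libraries had 45.1, 47.0 and 66.6 CPM and aged libraries 53.9, 53.3, 64.2 and 60.5 CPM. Young replicate 3 was the highest of all, and the log2 fold change was 0.14 ± 0.14 (adjusted p = 0.576). The region downstream of Baat (chr4:49485235-49487276), in no annotated gene, had 36.1, 39.5 and 40.4 CPM in young and 50.6, 49.4, 63.7 and 53.1 CPM in aged libraries. All aged libraries were higher, and the log2 fold change of 0.48 ± 0.12 (adjusted p = 0.035) ranged from 0.27 to 0.52 over 21 other settings and passed the test in 13. Of the other 3 regions of Baat, those in an intron and upstream have near-identical copies elsewhere in the genome, so their counts are uncertain, and neither was called.

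**Figure D4:**
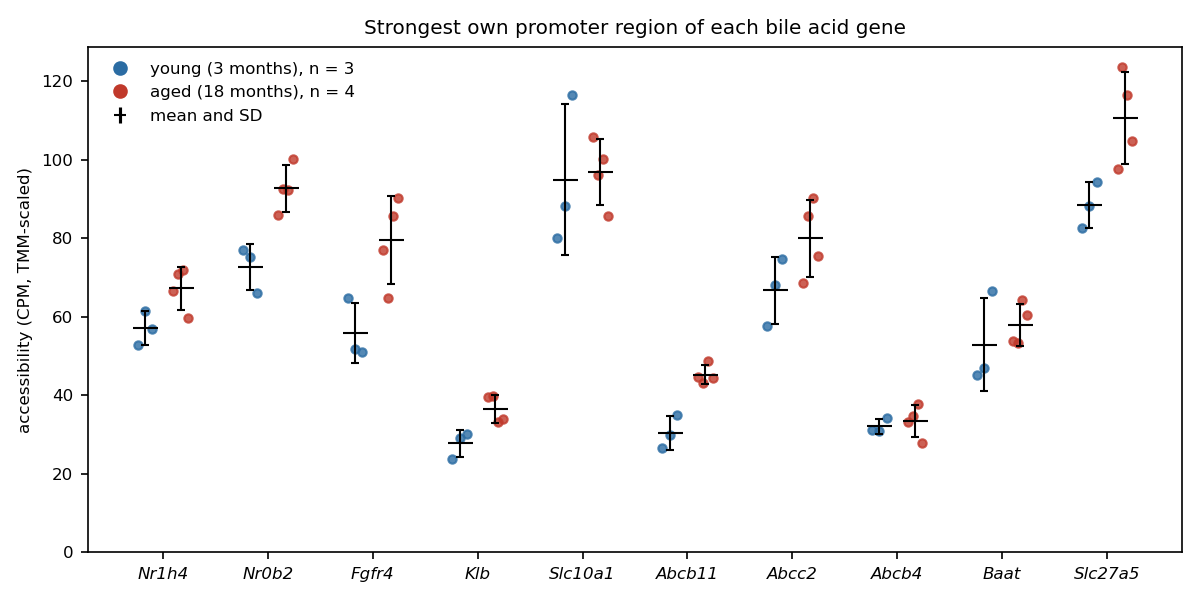
Accessibility (y axis, CPM scaled by TMM factors, from 0) of the strongest promoter region of each of the 10 genes (x axis) in young (blue, n = 3) and aged (red, n = 4) libraries; points are libraries and black marks the mean and SD. The points of the ages do not overlap at Nr0b2, Fgfr4, Klb, Abcb11 and Slc27a5, and Slc10a1, Abcb4 and Baat overlap widely; with offsets fitted on mean accessibility the direction turns at Nr1h4, Slc10a1, Abcc2, Abcb4, Baat and Slc27a5.

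Per kilobase, the promoter regions stood in the order Nr0b2, Fgfr4, Slc10a1, Slc27a5, Nr1h4, Abcb4, Abcb11, Abcc2, Klb and Baat, from a mean level of 37.0 CPM per kb over the 7 libraries at Nr0b2 to 12.8 CPM per kb at Baat. The order was not the same at both ages. In young liver Slc10a1 (26.1 CPM per kb) stood above Fgfr4 (21.9), and in aged liver Slc27a5 (27.1) stood above Slc10a1 (26.6), Abcb11 (22.3) above Abcb4 (19.7) and Klb (16.3) above Abcc2 (16.2). The ranges of neighbours in this order overlapped at every step, and the lengths of these regions, 1700 to 4935 bp, were set by peak calling. At Abcb11 the level rose from 15.0 ± 2.11 CPM per kb (SD, n = 3) to 22.3 ± 1.20 (SD, n = 4), and at Fgfr4 from 21.9 ± 3.03 to 31.2 ± 4.38.

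To give 1 value per gene, counts of all regions in each window were also summed and tested over 16231 protein-coding genes. Summed accessibility was higher in aged liver at 3 of the 10 genes, Nr0b2, Fgfr4 and Slc27a5, and lower at 0, against 6.1% and 3.27% of all gene windows. Over 21 other settings Nr0b2 passed in 12, Fgfr4 in 8 and Slc27a5 in 7, and of the 6 sums of a pair of aged libraries only that of replicates 2 and 4 kept the call at Slc27a5. For Nr0b2 the sum was 184.1, 186.0 and 169.7 CPM in young and 222.6, 229.9, 240.9 and 277.2 CPM in aged libraries, with no overlap and a log2 fold change of 0.43 ± 0.10 (edgeR, adjusted p = 0.029). For Slc27a5 it was 165 to 185 CPM in young and 209 to 233 CPM in aged libraries, with 0.32 ± 0.08 (adjusted p = 0.040), and for Fgfr4 it was 58.1 to 72.8 CPM and 71.0 to 100.9 CPM, with some overlap and 0.45 ± 0.12 (adjusted p = 0.047). The Fgfr4 promoter made up 84.1% to 93.9% of that sum in each library, so its window call largely repeats the promoter call. Abcb11 had 42.0 to 58.2 CPM in young and 55.7 to 70.7 CPM in aged libraries and just missed the threshold, with 0.40 ± 0.12 (adjusted p = 0.059). The log2 fold changes of Baat, Klb, Abcc2, Slc10a1, Nr1h4 and Abcb4 were 0.28, 0.24, 0.12, 0.10, 0.09 and -0.10, and none of these passed the test. The direction turned in 3 of 21 other settings at Nr1h4 and at Slc10a1 (total counts and offsets fitted on mean accessibility or on GC content), at Abcc2 with offsets fitted on mean accessibility (-0.036) and at Abcb4 without young replicate 3 (0.075). When regions at promoters of other genes were left out of the sums, Nr0b2 (adjusted p = 0.027) and Fgfr4 (adjusted p = 0.048) passed and Slc27a5 did not (adjusted p = 0.083), an alternative chosen after the data were seen. The median over all gene windows was 0.081, and 0 of the 10 genes passed with offsets fitted on mean accessibility, or without young replicate 1, young replicate 2, aged replicate 1 or aged replicate 3.

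**Figure D5:**
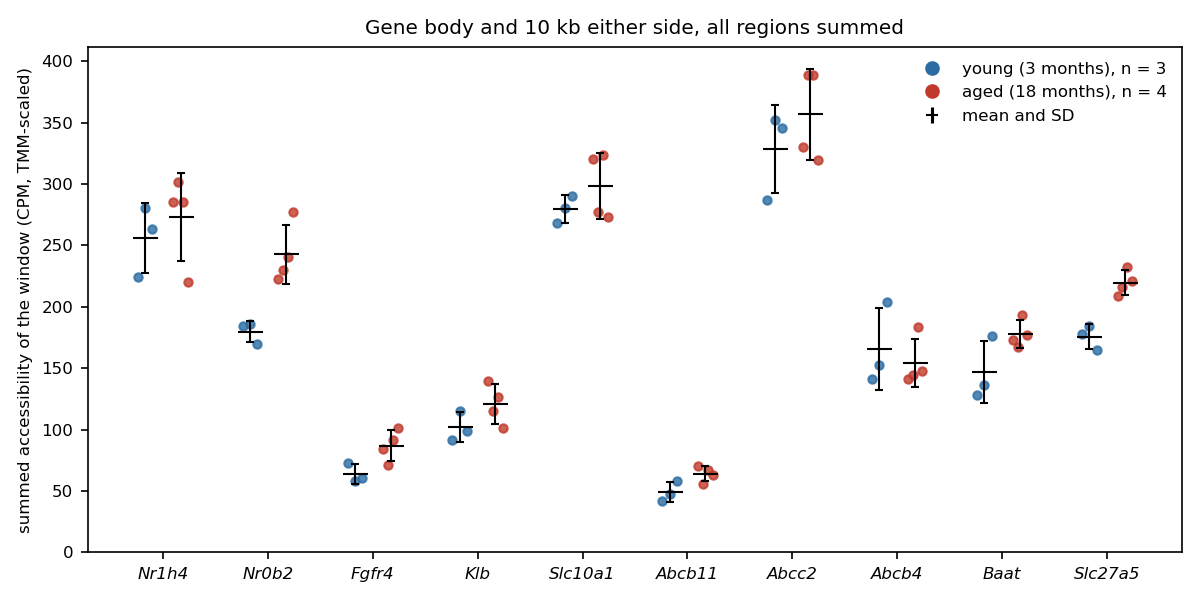
Summed accessibility (y axis, CPM scaled by TMM factors, from 0) of all regions in the gene and 10 kb on either side for the 10 genes (x axis) in young (blue, n = 3) and aged (red, n = 4) libraries; points are libraries and black marks the mean and SD. Aged libraries lie above all young ones at Nr0b2 and Slc27a5, and Abcb4, whose mean is lower in aged liver, has its highest value in young replicate 3.

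Of 38 further genes of bile acid metabolism, 35 had a region at their promoter, on 34 distinct regions, and Slc51a, Gpbar1 and Fgf15 had none. With TMM scaling 30 of the 35 lay above 0 (median log2 fold change 0.26), but 21 did with offsets fitted on mean accessibility and 25 with total counts. The promoter of 1 gene was called higher, that of Akr1d1, the steroid 5β-reductase of bile acid synthesis (0.52 ± 0.12, adjusted p = 0.031), and 0 were called lower, with 4.48% and 2.06% over all promoter regions. Akr1d1 passed in 13 of 21 other settings. The 8 in which it did not (adjusted p from 0.051 to 0.239) were total counts, offsets fitted on mean accessibility, omission of young replicate 1 or 3 or of aged replicate 1 or 3, and sums of aged replicates 1 and 3 or 2 and 3. Among the 13 genes of synthesis the rate-limiting enzyme Cyp7a1 had 0.32 ± 0.26 (adjusted p = 0.488), the sterol 12α-hydroxylase Cyp8b1 -0.17 ± 0.18 (adjusted p = 0.604), Cyp27a1 of the alternative pathway 0.30 ± 0.11 (adjusted p = 0.126) and Cyp2c70, which makes muricholic acids, 0.41 ± 0.17 (adjusted p = 0.154). Of 11 transport genes with a region 0 were called. The cholesterol exporters Abcg5 and Abcg8 share 1 region, with 0.31 ± 0.13 (adjusted p = 0.149), and the uptake carrier Slco1b2 had 0.26 ± 0.15 (adjusted p = 0.320). Of 11 regulators with a region 0 were called, and Rxra, the partner of FXR, had 0.38 ± 0.13 (adjusted p = 0.098), Hnf4a 0.25 ± 0.10 (adjusted p = 0.145) and Nr5a2 0.07 ± 0.14 (adjusted p = 0.794). Each gene was represented by its most accessible promoter region. The median over all promoter regions was 0.094, and over those of the strongest decile it was 0.28. With offsets fitted on mean accessibility the median of the 35 was 0.016, and that of all regions was 0.0095.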

How the data were processed

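ATAC-seq libraries of 3 young and 4 aged liver samples of mice were analysed. The authors deposited raw counts of reads in 55680 consensus regions of GRCm38, 1 column per library, after trimming, alignment, removal of duplicates and mitochondrial reads, peak calling and counting (cutadapt 1.13, Bowtie2 2.4.1, MACS2 2.2.7 and featureCounts in the submitters' processing notes). Region lengths follow the called peaks, and counting error is larger in libraries of lower total count (4474652 to 25461110).

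Regions were assigned to genes with GENCODE M21 transcripts: a window was the gene with 10000 bp on either side, and a promoter region overlapped 200 bp on either side of a start. Aged and young libraries were compared with edgeR 4.0.16 in R 4.3.3 (TMM, quasi-likelihood test, age alone), with Benjamini-Hochberg adjustment over all regions, or over 16231 genes for summed windows, at 0.05. Standard errors are those of the fitted log2 fold changes. DESeq2 1.42.0, limma 3.58.1 (voom), total counts, loess offsets (span 0.3) on mean accessibility and GC content, low-count filters (10 counts in every library, filterByExpr), a replicate block, omission of each library and sums of each of the 6 pairs of aged libraries were alternatives. Near-identical copies (80% of the length at 95% identity) were found with minimap2 2.31. The fit was tested on simulated data. Tables and figures were made with Python 3.11.15 and matplotlib 3.10.9. Libraries of the same age differed by more than sampling noise (chi-square per degree of freedom 2.47 to 6.10).

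Named regions were, for each gene, its strongest promoter region, its strongest region outside promoters and every region called, and, among regions separated by age, the 5 with the highest and the 5 with the lowest log2 fold change. Others in the text were added after their values were seen. The genes, lists and rules were chosen with earlier results of these data known. The labels call the young samples biological replicates. The p-values rest on the spread between libraries within both ages, and some of the aged samples share an animal by the deposited design text.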

Additional observations from a re-analysis of the deposited data

Results flagged for a closer look

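In the intron of Abcb4 at chr5:8903883-8905217, the strongest region of that gene outside promoters, aged replicate 1 stood apart from the other aged libraries, with a log2 CPM of 4.02 against 4.31 to 4.32. Its gap to the nearest library was 0.944 of the whole range of the 4 aged libraries, above Dixon's 95% critical value. It was 1 of 37 values checked in this way, and chance sets apart a library in about 1 of 20. The young libraries at the same region spanned 15.5 to 21.5 CPM and aged replicate 1 had 16.1 CPM, and the cause was not tested.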

How the results depend on the processing

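Regions at the 10 genes called higher (4 as reported) numbered 2 with total counts, 0 with offsets fitted on mean accessibility, 8 with offsets on GC content and 6 with DESeq2. Of all regions 0.98%, 0.44%, 6.28% and 4.96% were called higher in these settings. The number was 3 with 10 counts required in every library, and 1, 3, 5 and 2 with aged replicates 1 and 3, 2 and 3, 2 and 4 or 3 and 4 summed. It was 0 at an adjusted p under 0.01, 2 in gene bodies alone, and 0 to 4 when 1 library was left out. Regions called lower (1 as reported) numbered 3, 0 and 2 with total counts, offsets on mean accessibility and limma voom, 0, 0, 2 and 0 with aged replicates 1 and 3, 2 and 3, 2 and 4 or 3 and 4 summed, 0 at 0.01, 0 in gene bodies alone, and 0 to 1 with a library left out. The median over the 13 promoters (0.26) was 0.14 with total counts and 0.051 with offsets on mean accessibility. Genes with higher window sums (3 as reported) numbered 1 with total counts, 0 with offsets on mean accessibility, 2 with offsets on GC content, 4 with limma voom and 5 with DESeq2. They numbered 2, 0, 1, 1, 4 and 0 with aged replicates 1 and 2, 1 and 3, 1 and 4, 2 and 3, 2 and 4 or 3 and 4 summed, 0 at 0.01, and 0 to 4 with a library left out. The other bile acid promoters called (1 as reported) numbered 0 with total counts, 0 with offsets on mean accessibility, and 11 with offsets on GC content, where 5540 of 55680 regions were called. They numbered 2 with limma voom, 3 with DESeq2, 0 and 0 with aged replicates 1 and 3 or 2 and 3 summed, 0 at 0.01, and 0 to 1 with a library left out. With the replicate number as a block, 0 window sums were called, while the replicate block gave 4 regions higher, 3 of them as reported, and 1 lower, which was another region (calls were lost at the Fgfr4 promoter, adjusted p = 0.067, and at the Dnmbp exon, 0.051, and gained upstream of Abcc2 and downstream of Abcb4). Deviations of same-numbered libraries from the mean of their age correlated at -0.12, 0.06 and 0.03. With so few libraries these values cannot settle whether the numbers pair samples.

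Over all regions 1360 of 3198 calls were higher as reported, 543 of 3474 with total counts, 247 of 658 with offsets on mean accessibility, 3497 of 5540 with offsets on GC content and 2760 of 4691 with DESeq2, and total counts moved the median of all regions from -0.035 to -0.15. Calls over the whole table fell to 188, 446, 402 and 651 without young replicates 1 or 2 or aged replicates 1 or 3. The 27 named regions gave 567 values under the alternatives, of which 480 kept direction and side of the threshold, 42 lost the call, 13 gained it and 32 changed sign; 5 of the 78 regions had no value with 10 counts required in every library. With offsets on mean accessibility the sign changed at the promoters of Abcb4 (-0.095), Abcc2 (-0.022), Baat (-0.0998), Nr1h4 (-0.020), Slc10a1 (-0.29) and Slc27a5 (-0.00045) and at the strongest other regions of Abcc2 (-0.045), Fgfr4 (0.084), Nr1h4 (-0.099) and Slc10a1 (-0.12). With total counts it changed at the promoters of Abcb4 (-0.064) and Slc10a1 (-0.083) and at the strongest other regions of Abcb4 (-0.066), Nr1h4 (-0.097) and Slc10a1 (-0.029). With limma voom it changed at the strongest other regions of Fgfr4 (0.030) and Nr1h4 (-0.062), the latter also with aged replicates 1 and 2, 2 and 3 or 2 and 4 summed (-0.065, -0.034 and -0.011). With a library left out, values ran from -0.0066 to 0.14 at the Abcb4 promoter and -0.068 to 0.21 at that of Slc10a1, and at the strongest other regions from -0.042 to 0.19 (Abcb4), -0.27 to 0.090 (Fgfr4), -0.11 to 0.22 (Nr1h4) and -0.0051 to 0.15 (Slc10a1). Where a call was lost, the cause was not tested.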

Other observations

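Beyond the genes singled out by rule, some regulators and enzymes of bile acid metabolism were noted after their values were seen, and none of them passed the test. The promoter of Nr1h3, which encodes the oxysterol receptor LXRα, had a log2 fold change of 0.37 ± 0.11 (edgeR, adjusted p = 0.062), and that of Amacr, a peroxisomal racemase of side-chain oxidation, 0.35 ± 0.11 (adjusted p = 0.078). At Vdr, the vitamin D receptor, the value was -0.29 ± 0.23 (adjusted p = 0.464).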
